A study of Drosophila melanogaster with 21 samples.

Results

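The JNK (Jun kinase) pathway was followed through 7 genes in mosaic eye-antennal discs of *Drosophila melanogaster* larvae: the ligand gene *egr*, the feedback phosphatase gene *puc*, the transcription factor genes *Ets21C* and *Atf3*, and the reported targets *scaf*, *mol* and *cher*. They were taken as the probe sets whose array annotation gives 1 of these symbols alone, which found all 7 genes on 8 probe sets, out of 11982 named genes and 18769 probe sets tested. *egr* had 2 probe sets and is represented by the one with the higher mean. The probe sets of *cher*, *scaf* and *mol* carry the array maker's marks for probes that match more than 1 transcript.

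RNA was measured on 21 Affymetrix *Drosophila* arrays, 3 for each of 7 genotypes, in discs of larvae of the third instar dissected on day 5 after egg deposition, all on a *w1118* background. The genotypes, with *scrib-* meaning clones mutant for the polarity gene *scribble*, were *scrib-* with overexpressed *abrupt* (*scrib-*+*ab*), *ab* overexpression without *scrib* mutation (*ab*), *scrib-* with *RasV12* and *bskDN*, a dominant-negative version of Basket, the JNK kinase (*scrib-*+*RasACT*+*bskDN*), *scrib-* with *RasV12* (*scrib-*+*RasACT*), *scrib-* with the Notch intracellular domain and *bskDN* (*scrib-*+*NACT*+*bskDN*), *scrib-* with the Notch intracellular domain (*scrib-*+*NACT*), and the FRT control. The labels record tumours in the 5 *scrib-* genotypes, the *bskDN* ones included, and none in *ab* and control discs. The series asks how *ab* discs compare with *scrib-*+*ab* tumours and which genes respond to JNK in the Ras and Notch tumours. Per the study's methods, clones were made with a FLP recombinase under an *eyeless* driver on the FRT82B chromosome, transgenes were driven in them by tubulin-GAL4, and the *scrib1* allele was used with *ab*. Allele and driver of the Ras and Notch genotypes are not given in the sources used here.

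In the JNK pathway a tumour necrosis factor type ligand, Eiger, acts through surface receptors on a chain of kinases that ends in Basket, the fly Jun kinase. Basket phosphorylates the Jun and Fos proteins, which then switch on target genes. One target encodes Puckered, a phosphatase that removes the activating phosphates from Basket, so that *puc* is widely read as a reporter of the pathway. In discs the pathway is known for its part in wound closure, in the death of polarity-deficient clones and in the invasive behaviour of *scrib* mutant tumours driven by Ras or Notch.

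Values are log2 signals, and differences between groups are log2 fold changes. A gene was called higher or lower where limma's adjusted p was under 0.05 and the absolute log2 fold change was over 1, adjusted over all probe sets tested. Each p below is limma's adjusted p, with n = 3 arrays per group. Whether the 3 arrays of a genotype came from separate collections of larvae is not stated in the labels, so p-values measure only the spread among arrays, which may be partly technical. Clones and the cells around them went into the same RNA, so fewer cells of a type cannot be told apart from less RNA per cell.

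The *bsk* probe set was at 15.79 in both *bskDN* groups, against 11.90 in *scrib-*+*RasACT*, 11.55 in *scrib-*+*NACT* and 11.64 in control discs. All 9 measured markers of the eye-antennal disc had group means at or above 5 log2 in each genotype, though *ct* had arrays at 4.292 and 4.882 in *scrib-*+*RasACT*. Against the control, 6 of these 9 were lower and 2 higher in *scrib-*+*ab*, beside 10.1% and 9.98% of all named genes. In *ab*, 2 were lower and 2 higher, beside 6.79% and 9.6%. In *scrib-*+*RasACT* 4 were lower, beside 4.02%, and in *scrib-*+*NACT* 1 was lower, beside 2.86%. In each of the *bskDN* tumours 5 were lower, beside 1.73% with Ras and 5.06% with Notch. The 6 *ab* and *scrib-*+*ab* arrays stood apart in their array controls: the mean of the poly-A spike-ins was 2.19 to 2.30 on them and 5.39 to 7.27 on the other 15. The GAPDH signal of the 5′ minus that of the 3′ probe set was -3.17 to -2.21 on these 6 and -1.87 to -1.49 on the others. Per the methods, their RNA also came from less tissue than that of the control discs. In both comparisons of these groups with the control, genotype, array handling and amount of tissue therefore cannot be told apart. The same divide in array controls lies between these groups and the Ras and Notch groups. Rankings over the 7 genotypes and correlations over the 7 group means cross it. The *scrib-*+*ab* arrays also differed from the *ab* arrays, with hybridisation controls at 13.74 to 14.21, against 11.45 to 12.24, and 35.2 to 35.8% of probe sets at the floor, against 40.3 to 41.1%, so in that comparison genotype and array handling cannot be told apart either.

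With *bskDN*, 3 of the 7 genes were lower in Ras tumours and 6 of the 7 were lower in Notch tumours, and none was higher in either. *puc*, *Ets21C* and *cher* were lower with *bskDN* in both tumours. *egr*, *Atf3* and *scaf* were lower in Notch tumours, and the *bskDN* effect on each of these 3 differed between the tumours in a test of the difference itself. Against the control, 5 of the 7 genes were higher in each of the Ras and Notch tumours without *bskDN*, beside 3.62% and 1.99% of all named genes. *egr* alone was lower, in Notch tumours, beside 2.86%. Over all named genes, *bskDN* in Ras tumours lowered 2.27% and raised 2.95%, and *bskDN* in Notch tumours lowered 4.86% and raised 1.85%. The median log2 change of the 7 genes with *bskDN* was -0.71 in Ras tumours and -2.18 in Notch tumours, beside a median of 0 over all named genes in both.

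**Figure D1:**
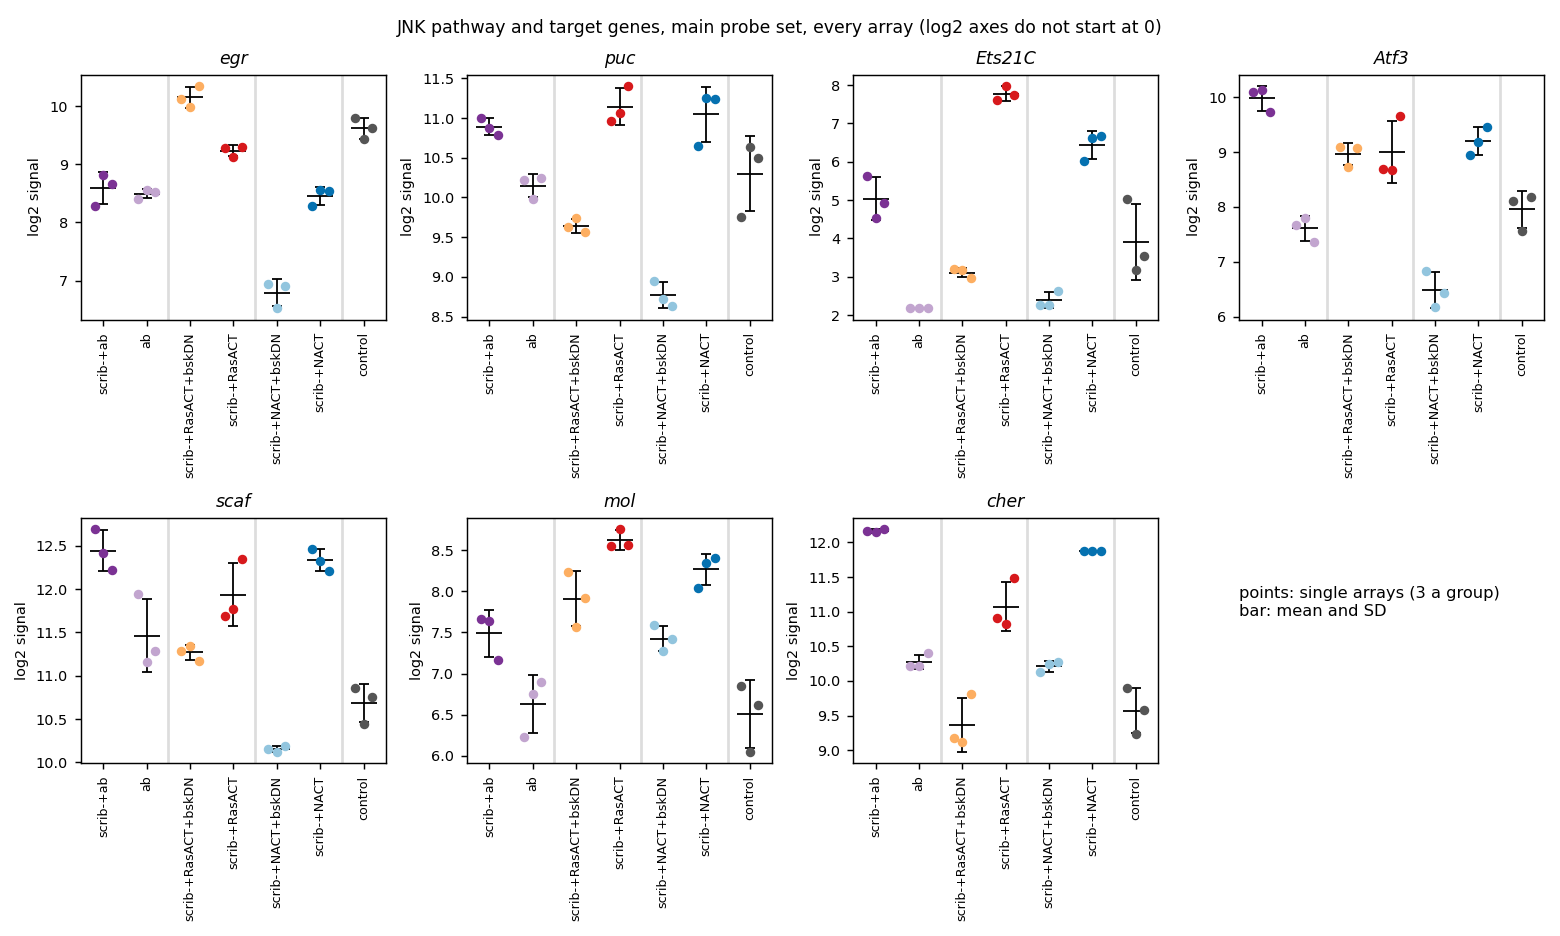
Log2 signal of the 7 genes (main probe set) on each of the 21 arrays, by genotype, where points are arrays and bars are the mean and SD of 3 arrays. The y axes do not start at 0 and differ between genes. The 3 *scrib-*+*NACT*+*bskDN* arrays lie below the 3 *scrib-*+*NACT* arrays for each gene, and the *scrib-*+*RasACT*+*bskDN* arrays lie below the *scrib-*+*RasACT* arrays for *puc*, *Ets21C*, *scaf*, *mol* and *cher*, overlap them for *Atf3* and lie above them for *egr*.

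*egr*, the gene of the ligand Eiger, moved in opposite directions with *bskDN* in the 2 tumours. Its log2 signals were 10.12, 9.99 and 10.35 in *scrib-*+*RasACT*+*bskDN*, against 9.29, 9.12 and 9.30 in *scrib-*+*RasACT*. They were 6.94, 6.52 and 6.90 in *scrib-*+*NACT*+*bskDN*, against 8.28, 8.56 and 8.53 in *scrib-*+*NACT*. Within each tumour the arrays with and without *bskDN* did not overlap, the *bskDN* arrays being the higher ones with Ras and the lower ones with Notch. The log2 fold change was 0.92 ± 0.14 (SE, adjusted p = 0.004) in Ras tumours, which is under the fold threshold, and -1.67 ± 0.14 (SE, adjusted p = 0.00011) in Notch tumours, a 3.17-fold lower signal. The effects differed by 2.58 ± 0.20 (SE, adjusted p = 0.00017) on the log2 scale. *egr* was 1 of 3 genes of the 7 whose *bskDN* effect was higher in Ras than in Notch tumours. None was lower, where 4.1% of all named genes were higher and 1.48% lower.

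Among tumours carrying *bskDN*, *egr* was 10.3-fold higher with Ras than with Notch (log2 3.37 ± 0.14, SE, adjusted p = 1.6e-06). *Atf3* and *scaf* were also called higher in that comparison and none of the 7 was lower, beside 5.39% of all named genes higher and 2.19% lower. The second *egr* probe set, which reads lower, had 8.35, 8.35 and 8.80 in *scrib-*+*RasACT*+*bskDN* and 7.73, 7.47 and 7.46 in *scrib-*+*RasACT*. It had 4.16, 4.31 and 5.31 in *scrib-*+*NACT*+*bskDN* and 6.22, 6.48 and 6.20 in *scrib-*+*NACT*. The order of these 4 groups was the same in both probe sets, and the difference between the *bskDN* effects was 2.65 ± 0.40 (SE, adjusted p = 0.0045) in this one. The 2 probe sets correlated across the 21 arrays with r = 0.969, arrays that share their groups and their normalization.

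*egr* was also lower in *scrib-*+*ab* tumours, at 8.29, 8.82 and 8.65, and in *ab* discs, at 8.41, 8.56 and 8.52, against 9.79, 9.44 and 9.62 in control discs. Neither of these groups overlapped the control. The log2 fold change was -1.03 ± 0.15 (SE, adjusted p = 0.0026) for *scrib-*+*ab* and -1.12 ± 0.15 (SE, adjusted p = 0.0021) for *ab*, and the 2 comparisons use the same 3 control arrays. The call for *scrib-*+*ab* was lost without replicate 1 of that group (-0.88), without control replicate 1 (-0.94) and with array weights (-0.96). *scrib-*+*ab* and *ab* discs differed by 0.09, with a 95% interval of -0.28 to 0.46. The level was ordered *scrib-*+*RasACT*+*bskDN*, control, *scrib-*+*RasACT*, then *scrib-*+*ab*, *ab* and *scrib-*+*NACT*, which overlapped one another, and *scrib-*+*NACT*+*bskDN* last.

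*puc*, the feedback phosphatase gene, was lower with *bskDN* in both tumours. Its log2 signals were 9.63, 9.74 and 9.57 in *scrib-*+*RasACT*+*bskDN*, against 10.96, 11.07 and 11.41 in *scrib-*+*RasACT*. In *scrib-*+*NACT*+*bskDN* they were 8.95, 8.72 and 8.63, against 10.64, 11.25 and 11.24 in *scrib-*+*NACT*. The arrays with and without *bskDN* did not overlap in either tumour. The fall was 2.83-fold in Ras tumours (log2 -1.50 ± 0.18, SE, adjusted p = 0.0013) and 4.86-fold in Notch tumours (log2 -2.28 ± 0.18, SE, adjusted p = 8.9e-05). The effects differed by 0.78 ± 0.26 (SE, adjusted p = 0.12), which did not pass the test.

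All *scrib-*+*RasACT* and *scrib-*+*NACT* arrays of *puc* lay above the control arrays, which were spread over 9.76, 10.63 and 10.50 with replicate 1 the lowest. The differences of 0.85 (adjusted p = 0.0081) for Ras and 0.75 (adjusted p = 0.03) for Notch on the log2 scale were under the fold threshold. The Ras comparison passed it without control replicate 2 (1.02). *scrib-*+*NACT*+*bskDN* was below the control by 2.89-fold (log2 -1.53 ± 0.21, SE, adjusted p = 8.2e-05), while *scrib-*+*RasACT*+*bskDN* differed from it by -0.65 (adjusted p = 0.065). *puc* was at 11.00, 10.88 and 10.79 in *scrib-*+*ab* tumours and at 10.22, 9.98 and 10.24 in *ab* discs. These 2 groups did not overlap, but their difference of 0.74 ± 0.23 (SE, adjusted p = 0.12) did not pass the test. The highest means, of *scrib-*+*RasACT*, *scrib-*+*NACT* and *scrib-*+*ab*, overlapped in their arrays.

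*Ets21C*, which encodes an ETS-domain transcription factor, was lower with *bskDN* in both tumours. It was at 3.19, 3.16 and 2.96 in *scrib-*+*RasACT*+*bskDN*, against 7.60, 7.98 and 7.73 in *scrib-*+*RasACT*. In Notch tumours it was at 2.28, 2.26 and 2.63 with *bskDN*, against 6.01, 6.61 and 6.66 without. The arrays with and without *bskDN* did not overlap in either tumour, and *Ets21C* passed the test in both (adjusted p = 3.2e-06 with Ras and 5.2e-06 with Notch). The *bskDN* arrays lay close to the floor of the deposited values, 2.17, so that only a bound on the change can be given. With each of these arrays set to 5 log2, the level of the low-value filter, *Ets21C* was at least 6.83-fold lower with *bskDN* in Ras tumours and at least 2.69-fold lower in Notch tumours. The sizes of the 2 falls were not compared.

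Among tumours without *bskDN*, *Ets21C* was the 1 gene of the 7 called between Ras and Notch, 2.54-fold higher with Ras (log2 1.34 ± 0.19, SE, adjusted p = 0.0053), where 1.54% of all named genes were higher and 0.768% lower. The groups did not overlap. The call was lost when only these 2 groups were fitted (adjusted p = 0.12) or with the replicate number as a block (adjusted p = 0.085). The count was 2 without *scrib-*+*RasACT* replicate 3, when *cher* was lower with Ras at -1.01 (adjusted p = 0.0089).

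In *scrib-*+*ab* tumours *Ets21C* was at 5.63, 4.53 and 4.93, against 2.18 on all 3 *ab* arrays, at the foot of the scale. The control arrays ranged widely, at 5.03, 3.16 and 3.54, with replicate 1 within the *scrib-*+*ab* range. *scrib-*+*ab* was called higher than *ab* (adjusted p = 0.02), but all 3 *ab* arrays and 2 of the 3 *scrib-*+*ab* arrays were under 5 log2, and no size is given for this difference. *Ets21C* was 1 of 3 genes of the 7 that were higher in this comparison and none was lower, where 2.09% of all named genes were higher and 2.84% lower. This call was lost without any 1 of the *ab* arrays (adjusted p = 0.06 to 0.066), without *scrib-*+*ab* replicate 3 (0.057), with array weights (0.16) and with a trended, robust prior (0.1). Against the control neither group was called (adjusted p = 0.19 for *scrib-*+*ab* and 0.052 for *ab*). Leaving out a control array changed that for *scrib-*+*ab* (adjusted p = 0.016 without replicate 1) and for *ab* (adjusted p = 0.04 without replicate 2).

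*Atf3*, the gene of a leucine-zipper transcription factor that can pair with Jun, was lower with *bskDN* in Notch tumours and was not called in Ras tumours. It was at 9.08, 8.73 and 9.08 in *scrib-*+*RasACT*+*bskDN*, against 8.69, 8.67 and 9.65 in *scrib-*+*RasACT*. In Notch tumours it was at 6.83, 6.18 and 6.44 with *bskDN*, against 8.95, 9.19 and 9.46 without. The Ras arrays overlapped, replicate 3 of *scrib-*+*RasACT* standing above the rest, whereas the Notch arrays were far apart. In Ras tumours the difference was -0.04, with a 95% interval of -0.71 to 0.63, and it changed sign without that replicate (0.28). In Notch tumours *Atf3* fell 6.58-fold (log2 -2.72 ± 0.29, SE, adjusted p = 0.00039). The 2 effects differed by 2.68 ± 0.41 (SE, adjusted p = 0.005), and with the replicate number as a block the adjusted p was 0.091.

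The highest *Atf3* mean of the 7 genotypes was that of *scrib-*+*ab* tumours, at 10.09, 10.13 and 9.72, against 7.68, 7.80 and 7.36 in *ab* discs and 8.12, 7.57 and 8.18 in control discs. No *scrib-*+*ab* array came near those of either other group, while *ab* and control arrays overlapped. *scrib-*+*ab* was 5.16-fold above *ab* (log2 2.37 ± 0.21, SE, adjusted p = 0.0022) and 4.07-fold above the control (log2 2.03 ± 0.21, SE, adjusted p = 0.00057). Of the 7 genes, 3 were higher and 1 lower in *scrib-*+*ab* than in control discs, beside 9.98% and 10.1% of all named genes. In *ab* discs none was higher and *egr* alone was lower than in the control, beside 9.6% and 6.79%. *Atf3* in *ab* discs differed from the control by -0.34, with a 95% interval of -0.86 to 0.17.

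*scaf*, also called *scarface*, encodes a secreted protein related to serine proteases but without their activity, and is known as a JNK target of embryonic closure movements. It was at 11.29, 11.35 and 11.17 in *scrib-*+*RasACT*+*bskDN*, against 11.69, 11.77 and 12.35 in *scrib-*+*RasACT*. In Notch tumours it was at 10.15, 10.13 and 10.19 with *bskDN*, against 12.47, 12.32 and 12.21 without. Neither pair overlapped, and the gap was wider in Notch tumours, where *scaf* fell 4.52-fold (log2 -2.18 ± 0.16, SE, adjusted p = 5.2e-05). In Ras tumours the change of -0.67 ± 0.16 (SE, adjusted p = 0.031) was under the fold threshold. The effects differed by 1.51 ± 0.22 (SE, adjusted p = 0.0042), and with the replicate number as a block the adjusted p was 0.11.

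In *scrib-*+*ab* tumours *scaf* was at 12.69, 12.42 and 12.22, against 11.94, 11.15 and 11.29 in *ab* discs and 10.86, 10.44 and 10.75 in control discs. *scrib-*+*ab* was 3.39-fold above the control (log2 1.76 ± 0.24, SE, adjusted p = 0.0019). Its difference from *ab* was 0.98 ± 0.24 (SE, adjusted p = 0.056), short of both thresholds, and passed them without *ab* replicate 1 (1.23, adjusted p = 0.024). The *ab* arrays lay above the control arrays by 0.78 (adjusted p = 0.061), which was not called. The 4 highest means of *scaf*, of *scrib-*+*ab*, *scrib-*+*NACT*, *scrib-*+*RasACT* and *ab* in that order, each overlapped the next.

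*mol* (*moladietz*), the gene of a maturation factor for the oxidase Duox, changed by less than the fold threshold with *bskDN* in both tumours. It was at 8.24, 7.57 and 7.92 in *scrib-*+*RasACT*+*bskDN* and at 8.55, 8.76 and 8.56 in *scrib-*+*RasACT*. It was at 7.59, 7.28 and 7.42 in *scrib-*+*NACT*+*bskDN* and at 8.05, 8.35 and 8.41 in *scrib-*+*NACT*. The *bskDN* arrays were the lower ones in both tumours, by -0.72 ± 0.17 (SE, adjusted p = 0.034) with Ras and -0.84 ± 0.17 (SE, adjusted p = 0.011) with Notch. The 2 effects differed by 0.13, with a 95% interval of -0.43 to 0.69.

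Every array of the 4 Ras and Notch groups lay above the control arrays of *mol*, which were at 6.85, 6.05 and 6.62. In *scrib-*+*ab* tumours *mol* was at 7.67, 7.64 and 7.16, above the *ab* discs at 6.23, 6.75 and 6.90 and above the control, but neither difference was called (0.86, adjusted p = 0.13, and 0.98, adjusted p = 0.041). The second of these passed the fold threshold without *scrib-*+*ab* replicate 3 (1.15) and without control replicate 1 (1.16). *ab* and control arrays overlapped and differed by 0.12, with a 95% interval of -0.56 to 0.80.

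*cher*, the gene of the actin-crosslinking protein filamin, was also lower with *bskDN* in both tumours. It was at 9.17, 9.11 and 9.81 in *scrib-*+*RasACT*+*bskDN*, against 10.91, 10.83 and 11.48 in *scrib-*+*RasACT*, with replicate 3 the highest in each. In Notch tumours it was at 10.12, 10.25 and 10.27 with *bskDN*, against 11.88, 11.88 and 11.88 without. Neither pair overlapped. *cher* fell 3.27-fold in Ras tumours (log2 -1.71 ± 0.21, SE, adjusted p = 0.0014) and 3.17-fold in Notch tumours (log2 -1.67 ± 0.21, SE, adjusted p = 0.00096), and the effects differed by -0.05, with a 95% interval of -0.73 to 0.64. The Ras call was lost when only those 2 groups were fitted (adjusted p = 0.071).

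In *scrib-*+*ab* tumours *cher* was at 12.16, 12.14 and 12.19, the highest of the 7 genotypes. It was at 10.21, 10.22 and 10.40 in *ab* discs and at 9.90, 9.24 and 9.58 in control discs. The *scrib-*+*ab* arrays lay above all others, 3.7-fold above *ab* (log2 1.89 ± 0.16, SE, adjusted p = 0.0018) and 6.03-fold above the control (log2 2.59 ± 0.16, SE, adjusted p = 6.3e-05). The *ab* arrays exceeded the control arrays by 0.70 ± 0.16 (SE, adjusted p = 0.018), under the fold threshold.

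**Figure D2:**
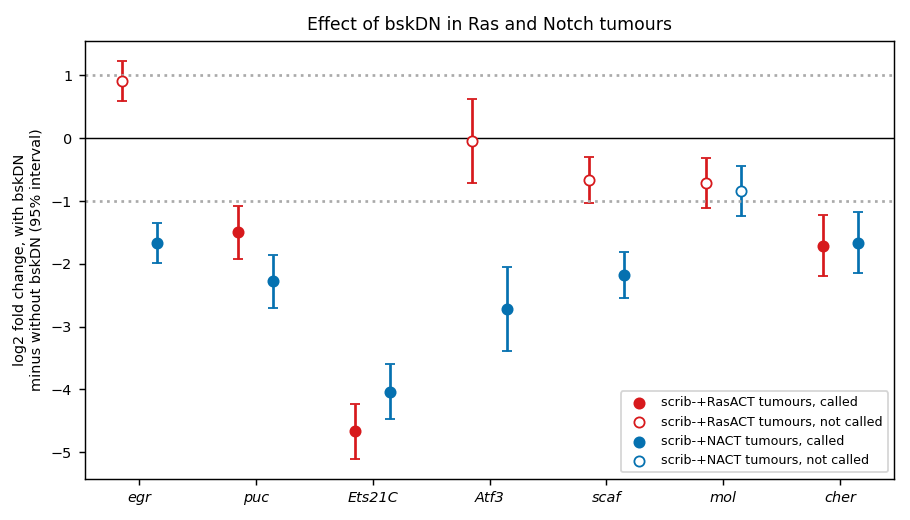
Log2 fold change with *bskDN* minus without, for the 7 genes in Ras and in Notch tumours, with 95% intervals from the fit of 12 arrays. Filled points passed both thresholds and the dotted lines mark a log2 fold change of 1 in either direction. For *egr*, *Atf3* and *scaf* the Ras and Notch intervals do not overlap, while for *mol* and *cher* the 2 points nearly coincide. The *Ets21C* points are fitted differences from values near the floor.

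Set against the control, 5 of the 7 genes were higher in each of the Ras and Notch tumours without *bskDN*, in 2 comparisons that share the control arrays. In *scrib-*+*RasACT* the 5 were *Ets21C* (adjusted p = 5.1e-06, at least 6.79-fold by the same bound), *mol* (log2 2.12), *cher* (1.50), *scaf* (1.25) and *Atf3* (1.05, adjusted p = 0.0094), beside 3.62% of all named genes higher and 4.02% lower. In *scrib-*+*NACT* they were *Ets21C* (at least 2.67-fold), *cher* (log2 2.30), *mol* (1.76), *scaf* (1.65) and *Atf3* (1.24, adjusted p = 0.0055), beside 1.99% higher and 2.86% lower. *egr* was lower in *scrib-*+*NACT* than in the control (-1.16 ± 0.15, SE, adjusted p = 8.7e-05) and differed by -0.38 (adjusted p = 0.09) in *scrib-*+*RasACT*. The *Atf3* call in Ras tumours was lost without *scrib-*+*RasACT* replicate 3 (0.73), without control replicate 2 (adjusted p = 0.052) and with array weights (0.82). With only the 2 groups of each comparison fitted, *Ets21C* and *mol* kept their call in Ras tumours, and *Ets21C* (adjusted p = 0.093) and *Atf3* (adjusted p = 0.061) lost theirs in Notch tumours.

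With *bskDN*, the same comparison with the control gave different members in the 2 tumours, apart from *Atf3*. *Atf3* was called in both, higher with Ras and lower with Notch. In *scrib-*+*RasACT*+*bskDN*, *mol* (1.41 ± 0.23, SE, adjusted p = 0.001) and *Atf3* (1.01 ± 0.26, SE, adjusted p = 0.024) were higher and none was lower, beside 2.42% of all named genes higher and 1.73% lower. Both calls were lost when only these 2 groups were fitted (adjusted p = 0.063 and 0.068), and the *Atf3* call was lost without *scrib-*+*RasACT*+*bskDN* replicate 1 or 3 or without control replicate 2 (adjusted p = 0.085 to 0.11). In *scrib-*+*NACT*+*bskDN* none was higher and 4 were lower, beside 1.82% of all named genes higher and 5.06% lower. These were *egr* (-2.83 ± 0.15, SE, adjusted p = 7.2e-09), *puc* (-1.53), *Ets21C* (adjusted p = 0.0099) and *Atf3* (-1.47, adjusted p = 0.00093). *Ets21C* averaged 2.39 in *scrib-*+*NACT*+*bskDN* and 3.91 in the control, both under 5 log2, so no size is given, and its call was lost without control replicate 1 and when only these 2 groups were fitted (adjusted p = 0.18).

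**Figure D3:**
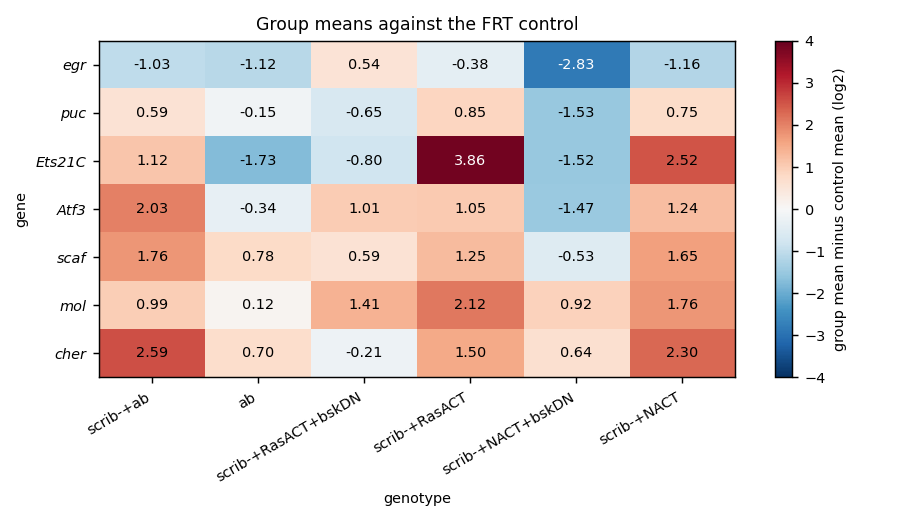
Group mean minus control mean (log2) for the 7 genes in 6 genotypes, where red marks a higher and blue a lower mean than in the FRT control and each cell prints its difference. The *Ets21C* differences are set against control arrays near or under 5 log2 and are not sizes to read. *cher* in *scrib-*+*ab* (2.59) is the highest difference among the other genes and *egr* in *scrib-*+*NACT*+*bskDN* (-2.83) the lowest.

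The *bskDN* tumours themselves differed in 3 genes, all higher with Ras than with Notch: *egr*, *Atf3* (5.59-fold, log2 2.48 ± 0.29, SE, adjusted p = 0.00048) and *scaf* (2.16-fold, log2 1.11 ± 0.16, SE, adjusted p = 0.0014). *puc* (0.88, adjusted p = 0.01) was higher and *cher* (-0.85, adjusted p = 0.025) was lower with Ras by less than the fold threshold. *cher* passed it at -1.07 without *scrib-*+*RasACT*+*bskDN* replicate 3. With the replicate number as a block, which here joins 1 number alone, *Atf3* (adjusted p = 0.061) and *scaf* (0.13) lost their call.

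Other genes of the pathway were read from a list of 42, of which 29 were measured by a probe set with their symbol alone. Genes of the list without one, the metalloproteinase gene *Mmp1* among them, were not analysed here. With *bskDN*, 3 of the 29 were higher and 6 lower in Ras tumours (median -0.10), beside 2.95% and 2.27% of all named genes. In Notch tumours 1 was higher and 11 were lower (median -0.49), beside 1.85% and 4.86%. The *bsk* transgene is 1 of the higher ones in both. All 6 lower genes in Ras tumours were among the 9 measured targets and partners, which had a median of -1.79. In Notch tumours 6 of those 9 were lower as well, with a median of -1.35.

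The lower targets included *wun2*, a lipid phosphatase gene, at -3.06 in Ras and -6.30 in Notch tumours. Its *scrib-*+*NACT*+*bskDN* arrays were at 4.671 to 4.987, under 5 log2, so the size in Notch tumours is a fitted difference from low values. *Pvf1*, the gene of a growth factor of the PDGF and VEGF family, fell by 2.76 and 4.06, and *Pvr*, the gene of its receptor, by 1.42 and 1.96. *upd2*, a cytokine gene of JAK-STAT signalling, was called lower in both. It averaged 2.193 with *bskDN*, against 3.99 without, in Ras tumours and 2.203, against 3.55, in Notch tumours, all under 5 log2, and no size is given. *upd1*, of the same family, fell by 2.93 in Ras tumours and differed by -0.84 (adjusted p = 0.018), under the fold threshold, in Notch tumours. *Ilp8*, the gene of a hormone that delays pupariation, fell by 3.27 in Ras and 1.28 in Notch tumours.

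Among the upstream genes, *hep*, the gene of the kinase that activates Basket, differed by 0.21 in Ras and -0.06 in Notch tumours and was not called. *Jra*, the gene of Jun, and *kay*, the gene of Fos, were lower with *bskDN* in Notch tumours (-1.08, adjusted p = 0.0067, and -1.81, adjusted p = 0.024). The *scrib-*+*NACT* arrays were uneven, at 10.75, 11.59 and 11.61 for *Jra* and 11.02, 12.645 and 12.77 for *kay*. The highest *scrib-*+*NACT*+*bskDN* arrays were at 10.255 and 10.56. In Ras tumours *Jra* and *kay* changed by -0.37 and -0.77 with adjusted p of 0.38 and 0.43. The difference between tumours did not pass the test for *Jra* (adjusted p = 0.21) or *kay* (0.5). *Traf4*, an adaptor of the receptor, and *Timp*, an inhibitor of metalloproteinases, were lower in Notch tumours (-1.98 and -2.11). They differed by 0.35 and -0.22 in Ras tumours, with a difference between tumours of 2.33 (adjusted p = 0.00066) and 1.89 (adjusted p = 0.0042). The *scrib-*+*NACT*+*bskDN* arrays of *Timp* were at 4.415 to 4.959, under 5 log2. *wgn*, a receptor gene for Eiger, was higher with *bskDN* in Ras tumours (1.12), as was *peb*, a zinc-finger factor gene (1.56), which was lower in Notch tumours (-1.39). Of the 29, 7 had a higher and 2 a lower *bskDN* effect in Ras than in Notch tumours, beside 4.1% and 1.48% of all named genes. *wun2* (3.24) and *peb* (2.94) showed the widest gaps, that of *wun2* with its *scrib-*+*NACT*+*bskDN* arrays under 5 log2.

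**Figure D4:**
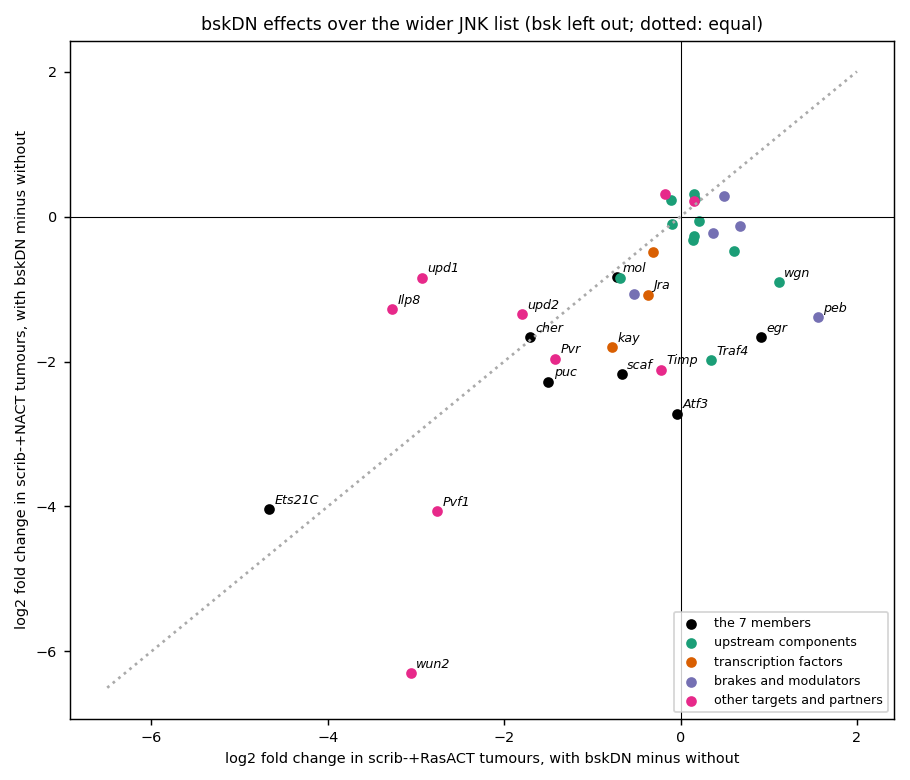
Log2 fold change with *bskDN* minus without, in Ras tumours (x axis) against Notch tumours (y axis), for the 7 genes and the other measured genes of the pathway list by role, *bsk* left out. The dotted line marks equal effects. *egr*, *peb*, *wgn* and *Traf4* are among the genes that lie right of 0 and below it, and *wun2* and *Pvf1* lie lower in Notch than in Ras tumours.

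Against the control, 9 of the 29 were higher and 1 lower in *scrib-*+*ab* tumours (median 0.08), beside 9.98% of all named genes higher and 10.1% lower. In *ab* discs 5 were higher and 3 lower (median 0.13), beside 9.6% and 6.79%. *hep* was higher by 1.12 in *scrib-*+*ab* and by 1.20 in *ab*, and *Jra* and *kay* were not called. Between *scrib-*+*ab* and *ab*, *wun2* (3.76), *Pvf1* (3.08) and *upd1* (2.49) were higher, and *peb* (-1.51) was lower. In *scrib-*+*RasACT* 6 of the 29 were higher and 1 lower than in the control (median -0.14), beside 3.62% and 4.02%. In *scrib-*+*NACT* 5 were higher and 2 lower (median -0.02), beside 1.99% and 2.86%. Among the higher genes were *wun2* (3.74 in Ras and 4.82 in Notch tumours) and *upd1* (3.61 and 3.91).

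Of the 9 disc markers, 1 was lower with *bskDN* in Ras tumours, beside 2.27% of all named genes, and 2 in Notch tumours, beside 4.86%. None of the disc markers was higher, beside 2.95% in Ras and 1.85% in Notch tumours. None of 3 measured markers of trachea was called with *bskDN* in either tumour, beside the same shares. Of 8 measured haemocyte genes, 6 were lower with *bskDN* in Notch tumours, beside 4.86% of all named genes, and 1 in Ras tumours, beside 2.27%. The mean of that list was 3.79 to 4.11 on the *scrib-*+*NACT*+*bskDN* arrays, where 1 of the 8 had a group mean at or above 5 log2. It was 5.96 to 7.53 on the *scrib-*+*NACT* arrays, where 7 had. It was 4.39 to 6.21 in *scrib-*+*RasACT*+*bskDN*, against 6.25 to 7.38 in *scrib-*+*RasACT*. The haemocyte gene *Hml* averaged 3.30 in *scrib-*+*NACT*+*bskDN*, against 8.54 in *scrib-*+*NACT*, and *NimC1* was near the floor in both (2.19 and 2.33). The part of these cells in the changes of the 7 genes was not tested.

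All 3 measured muscle genes were lower with *bskDN* in Notch tumours, beside the same 4.86%. There their mean was 2.68 to 3.16, against 6.06 to 7.01 without, and none of them was at or above 5 log2. In Ras tumours 1 of the 3 was lower, beside 2.27%, and their mean was 5.11 to 6.68 with *bskDN*, against 7.41 to 7.91 without. In *scrib-*+*ab* tumours the muscle mean was 9.09 to 9.69, against 7.50 to 8.42 in *ab* and 4.68 to 6.27 in control discs. The haemocyte mean was 7.67 to 9.09 in *scrib-*+*ab*, 7.69 to 8.44 in *ab* and 5.68 to 6.90 in control discs. The 5 fat body genes averaged 4.07 to 9.03 over the *scrib-*+*RasACT*+*bskDN* arrays, against 3.49 to 3.88 in *scrib-*+*RasACT*. None of them was called there, beside 2.27% of all named genes lower and 2.95% higher. They averaged 4.05 to 4.27 in *scrib-*+*NACT*+*bskDN*, against 5.85 to 8.46 in *scrib-*+*NACT*. In Notch tumours 1 of them was called lower with *bskDN*, beside 4.86%. The part of muscle and fat body in the changes of the 7 genes was not tested either.

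Of 8 measured neuroblast and glia genes, 3 were lower and 1 higher with *bskDN* in Notch tumours, beside 4.86% and 1.85% of all named genes. In Ras tumours 1 was lower and 2 were higher, beside 2.27% and 2.95%. Their *bskDN* effect was higher in Ras than in Notch tumours for 4 of the 8 and lower for none, beside 4.1% and 1.48% of all named genes, as it was higher for *egr*, *Atf3* and *scaf*. The list averaged 5.16 to 5.43 in *scrib-*+*NACT*+*bskDN*, against 6.39 to 6.67 in *scrib-*+*NACT*, and 6.49 to 6.64 in *scrib-*+*RasACT*+*bskDN*, against 6.32 to 6.79 in *scrib-*+*RasACT*. The glial gene *moody* averaged 6.15 in *scrib-*+*NACT*+*bskDN*, against 9.54 in *scrib-*+*NACT*, and 9.25 in *scrib-*+*RasACT*+*bskDN*, against 9.71 in *scrib-*+*RasACT*. The glial gene *repo* averaged 5.81, against 7.70, in the Notch groups and 9.31, against 8.79, in the Ras groups. The list did not move as one. *dpn* was higher with *bskDN* in both tumours, at 12.58, against 11.30, with Notch and 10.275, against 9.25, with Ras. *insc* was lower in both, at 4.77, against 8.75, with Notch and 6.415, against 8.69, with Ras. *mira* changed by -0.88 in Notch and 1.35 in Ras tumours. *ase*, *wor* and *gcm* averaged under 5 log2 in each genotype. Between the *bskDN* tumours 4 of the 8 were higher with Ras and 1 was lower, beside 5.39% and 2.19% of all named genes. The part of these cells in the changes of *egr*, *Atf3* and *scaf* was not tested.

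**Figure D5:**
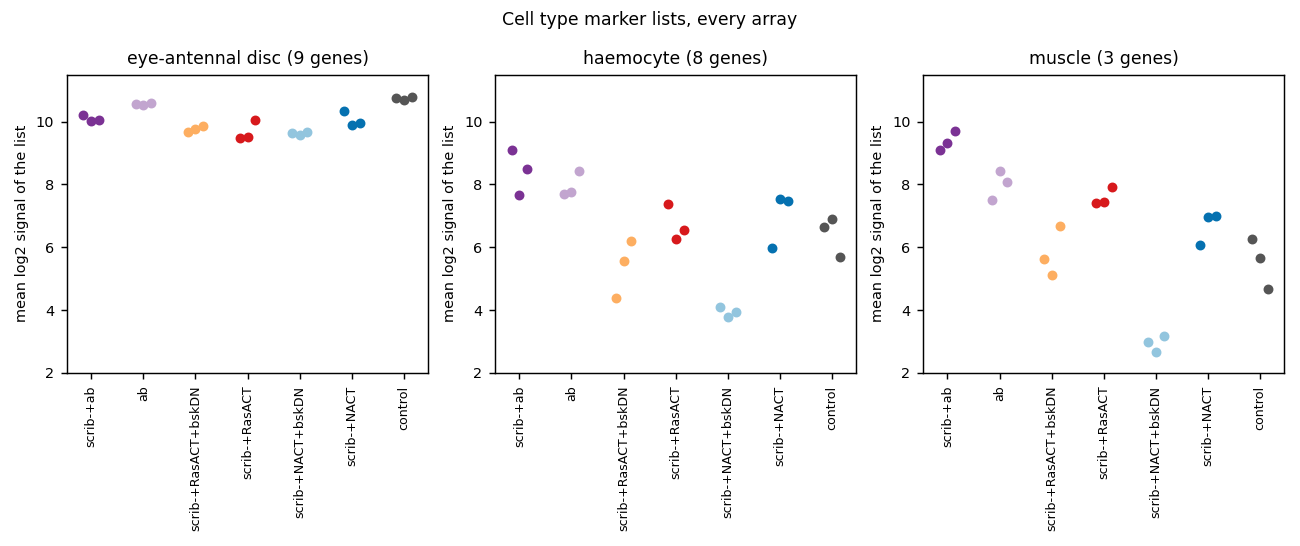
Mean log2 signal of the measured markers of the eye-antennal disc, haemocytes and muscle on each of the 21 arrays, by genotype. The mean of the disc markers is between 9.48 and 10.77 on all arrays, over members that differ both ways from the control, while the haemocyte and muscle means are lowest on the *scrib-*+*NACT*+*bskDN* arrays and reach their highest values on *scrib-*+*ab* arrays.

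The patterns of the genes across genotypes are described by correlations over the 7 group means, which share arrays and normalization. The highest were between *Atf3* and *scaf* (r = 0.884), *puc* and *scaf* (r = 0.863) and *puc* and *Ets21C* (r = 0.828). *egr* had values between -0.31 with *cher* and 0.547 with *Atf3*. The named genes outside the 7 whose group means were most like a member were *CG14234* for *egr* (r = 0.978), *CG2201* for *puc* (0.993), *CG7299* for *Ets21C* (0.985), *alpha-Est7* for *Atf3* (0.979), *SP1173* for *scaf* (0.991), *CG31673* for *mol* (0.994) and *CG15784* for *cher* (0.992). These are the highest of 4131 candidates over 7 points each, and *Hand* (0.989) and *Irbp18* (0.977) came next for *puc* and *mol*. *CG14234* averaged 8.44 in *scrib-*+*RasACT*+*bskDN*, 7.62 in *scrib-*+*RasACT*, 2.81 in *scrib-*+*NACT*+*bskDN* and 5.92 in *scrib-*+*NACT*. This is the order of *egr* in these 4 groups, but *CG14234* was picked for its likeness to *egr* over these same means.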

How the data were processed

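RNA of mosaic eye-antennal discs was hybridised to 21 Affymetrix *Drosophila* 2.0 arrays. The authors made the deposited values, log2 signals per probe set, with GCRMA, version not stated, which corrects background by probe sequence, normalizes by quantiles and summarises probe sets. All 21 columns share a floor of 2.17, and 7296 to 7854 probe sets per array were at or above 5 log2. For arrays, precision is limited by their number.

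Groups came from the labels. The 183 AFFX probe sets were left out, the other 18769 were tested without a filter, and genes were named from the array annotation, updated through the RefSeq gene table (names only). A gene is its probe set with the highest mean.

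Contrasts came from limma 3.58.1 (R 4.3.3), unblocked, with moderated variances. One fit held the 9 arrays of *scrib-*+*ab*, *ab* and control, another the 12 arrays of the Ras and Notch groups, and all 21 arrays entered the comparisons of these groups with the control. The Ras and Notch effects of *bskDN* were compared as an interaction. For *Ets21C*, a bound was computed with the arrays of the dimmer group that were under 5 log2 set to that level, an alternative chosen after seeing the data. A call needed an adjusted p (Benjamini-Hochberg) under 0.05 with a log2 fold change beyond 1 in either direction. The fit was tested on simulated data.

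The 7 genes, and the lists of pathway and marker genes, were chosen with earlier results of these data known. The wider list was named for at most 8 called genes per comparison by size, and *hep*, *Jra* and *kay* always. The genes most like a member had to span at least 1 log2 over the group means and reach 6 log2.

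Same-numbered arrays correlated in their deviations at r over 0.1 for every number only in *scrib-*+*RasACT* against the control (r = 0.139, 0.147 and 0.217), a pairing seen in the data and not stated in the labels. With that block the same 5 genes were called. Alternatives were a second quantile normalization, a filter on low values (5 log2 on 3 arrays), a trended robust prior, array weights, the replicate block, the mean of a gene's probe sets, only the groups compared, and each array left out.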

Additional observations from a re-analysis of the deposited data

Results flagged for a closer look

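The effect of *bskDN* was set against itself in the 2 tumours, and the test of the difference was passed by 3 of the 7 genes. For *egr* the effect in Ras tumours minus that in Notch tumours was 2.58 on the log2 scale (limma adjusted p = 0.00017). The 3 Ras arrays with *bskDN* lay above the 3 without and the 3 Notch arrays with *bskDN* lay below the 3 without, and the call held with the replicate number as a block. For *Atf3* the difference was 2.68 (adjusted p = 0.005), with a fall in Notch tumours and overlapping arrays in Ras tumours. For *scaf* it was 1.51 (adjusted p = 0.0042), with the *bskDN* arrays the lower ones in both tumours. With the replicate block, the adjusted p was 0.091 for *Atf3* and 0.11 for *scaf*.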

How the results depend on the processing

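Of 165 recomputed counts of called genes, 148 stayed within 1.5 times the reported count. In *ab* against control the count was 2 in place of 1, *Ets21C* being added, after a second quantile normalization, with array weights and with the replicate block, and it was 1 to 2 with an array left out. The replicate block gave 1 gene (*egr*) in place of 3 for the difference between the *bskDN* effects and for Ras against Notch tumours with *bskDN*, 0 in place of 1 for Ras against Notch tumours and 1 in place of 2 for *scrib-*+*RasACT*+*bskDN* against control. It changed no other call of the 7 genes. Fitting only the groups compared gave 0 in place of 1 for Ras against Notch tumours, 2 in place of 5 for *scrib-*+*RasACT* against control and 0 in place of 2 for *scrib-*+*RasACT*+*bskDN* against control. The last count was 1 with array weights and 1 to 2 with an array left out. Ras against Notch tumours had 2 with the mean of probe sets and 1 to 2 with an array left out. Leaving out an array gave 3 in each case for *bskDN* in Ras tumours and 6 in each for *bskDN* in Notch tumours. A fit of 15 arrays without the *ab* and *scrib-*+*ab* arrays, chosen after seeing the data, called the same genes against the control.

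In the settings run, changes of sign were confined to genes not called. With an array left out, *puc* in *ab* against control ranged from -0.418 to 0.021 and *mol* from -0.108 to 0.32, and *egr* in *scrib-*+*ab* against *ab* from -0.024 to 0.242. *Atf3* with *bskDN* in Ras tumours ranged from -0.207 to 0.284, and *puc* in Ras against Notch tumours from -0.101 to 0.204. In the difference between *bskDN* effects *mol* ranged from -0.038 to 0.297 and *cher* from -0.266 to 0.16. A second quantile normalization gave -0.172 for *mol* in *ab* against control and -0.012 for *mol* and 0.014 for *cher* in the difference between *bskDN* effects. Array weights gave 0.184 for *Atf3* with *bskDN* in Ras tumours, 0.137 for *cher* in that difference and -0.135 for *puc* in Ras against Notch tumours. The replicate block gave 0.001 for *cher* in that difference.

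Over all named genes, counts of calls moved by more than 1.5 times in some settings. *scrib-*+*ab* against *ab* had 591 calls, and 202 with a trended robust prior, 354 with array weights, 364 with the replicate block and 358 with only those groups. *bskDN* had 626 in Ras tumours (350 with the block, 353 with only those groups) and 804 in Notch tumours (433 with the block). Their difference had 668 (1009 with array weights, 205 with the block). Ras against Notch tumours had 277 (499 with weights, 53 with the block, 68 with only those groups, 434 without *scrib-*+*RasACT* replicate 3) and 909 with *bskDN* (521 with the block). *scrib-*+*RasACT* against control had 916 (498 with only those groups). A second quantile normalization moved the share of higher calls to 46.9%, against 58.6%, in *ab* against control, to 52.9%, against 42.5%, in *scrib-*+*ab* against *ab*, to 57.6%, against 73.5%, in the difference of *bskDN* effects, to 58.4%, against 71.1%, in Ras against Notch tumours with *bskDN*, and to 38.6%, against 26.5%, in *scrib-*+*NACT*+*bskDN* against control. It was 37.3%, against 27.6%, for *bskDN* in Notch tumours. The causes were not tested. *Ets21C* sat near the floor in 3 groups, which limits the precision of its fold changes.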
